A study of Mus musculus with 8 samples.

Results

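The nuclear genes of respiratory complexes II to V were followed in mouse liver by RNA sequencing. They are the succinate dehydrogenase genes Sdha to Sdhd, the Uqcr genes with Cyc1, the cytochrome c gene Cycs, the Cox4 to Cox8 genes and the Atp5 genes. All were found by gene symbol, and rows named as pseudogenes, 3 in number, were left out. This gave 47 of the 24547 genes in the deposited table: 4 of complex II, 9 of complex III, 1 for cytochrome c, 16 of complex IV and 17 of complex V. The study gave ICR mice, an outbred strain, a high dose of Psoraleae Fructus decoction by stomach for 30 days, and a control group received saline. Psoraleae Fructus is the dried fruit of Psoralea corylifolia, used as a herbal medicine, and the study concerns liver damage by it. Each group has 4 liver libraries, called treated 1 to 4 and control 1 to 4. Dose by mass, sex, age and batch are not in the labels. Nothing there ties a library to its own animal, so the spread behind the p-values may be partly technical.

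The respiratory chain passes electrons from NADH and succinate to oxygen and stores the energy as a proton gradient across the inner mitochondrial membrane. Complex II takes electrons from succinate, complex III hands them to cytochrome c, complex IV passes them to oxygen, and complex V, the ATP synthase, makes ATP from the gradient. Complexes III, IV and V combine a few subunits encoded in mitochondrial DNA with many encoded in the nucleus, while complex II is wholly nuclear. Hepatocytes hold many mitochondria, which supply ATP for gluconeogenesis and for the making of urea.

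Promoter sequences of the genes on which the results turn are shown first. For each complex the gene with the smallest adjusted p after the length and GC correction described below was taken, and Cycs, the single gene between complexes III and IV, was added. The stretches run from 250 bases before to 30 bases after the RefSeq start of each gene (build GRCm38.p6), read 5′ to 3′ along the gene. They lie at chr9:50603820-50604099 (minus strand) for Sdhd, chr10:80406792-80407071 (minus) for Uqcr11, chr1:36691237-36691516 (plus) for Cox5b, chr5:108434370-108434649 (minus) for Atp5k and chr6:50566540-50566819 (minus) for Cycs. Capitals mark matches to the core letters of sites for NRF-1 (GCGCANGCG) and for ETS factors such as GABP (CCGGAAG), on either strand.
Sdhd: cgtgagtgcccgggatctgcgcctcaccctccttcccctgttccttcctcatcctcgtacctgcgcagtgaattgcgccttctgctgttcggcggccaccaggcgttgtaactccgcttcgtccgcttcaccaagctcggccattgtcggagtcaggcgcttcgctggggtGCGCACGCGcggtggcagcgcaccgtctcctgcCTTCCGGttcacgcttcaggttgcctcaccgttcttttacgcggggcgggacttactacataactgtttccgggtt
Uqcr11: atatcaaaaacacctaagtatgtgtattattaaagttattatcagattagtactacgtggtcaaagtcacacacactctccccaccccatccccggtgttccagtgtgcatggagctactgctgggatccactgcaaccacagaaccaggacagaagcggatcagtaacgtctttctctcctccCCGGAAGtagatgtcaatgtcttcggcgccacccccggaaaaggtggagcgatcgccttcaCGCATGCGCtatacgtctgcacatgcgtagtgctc
Cox5b: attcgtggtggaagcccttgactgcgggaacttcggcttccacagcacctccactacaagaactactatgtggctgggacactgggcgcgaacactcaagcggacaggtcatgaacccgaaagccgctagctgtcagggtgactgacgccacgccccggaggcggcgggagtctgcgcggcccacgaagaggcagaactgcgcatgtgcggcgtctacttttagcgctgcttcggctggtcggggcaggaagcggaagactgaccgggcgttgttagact
Atp5k: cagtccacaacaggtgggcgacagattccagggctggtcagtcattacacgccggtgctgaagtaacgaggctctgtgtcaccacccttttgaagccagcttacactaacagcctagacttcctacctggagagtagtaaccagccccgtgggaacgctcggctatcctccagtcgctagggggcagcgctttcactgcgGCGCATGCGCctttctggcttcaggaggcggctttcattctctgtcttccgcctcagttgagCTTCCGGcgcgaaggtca
Cycs: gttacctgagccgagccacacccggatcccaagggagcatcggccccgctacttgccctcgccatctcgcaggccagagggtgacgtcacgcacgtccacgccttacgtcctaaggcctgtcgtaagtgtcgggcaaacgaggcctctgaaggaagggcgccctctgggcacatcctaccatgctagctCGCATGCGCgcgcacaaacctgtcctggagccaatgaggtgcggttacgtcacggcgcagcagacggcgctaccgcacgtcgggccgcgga

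In these stretches Sdhd, Uqcr11 and Atp5k held both an NRF-1 core and an ETS core, Cycs held an NRF-1 core, and Cox5b held no match. The run of 10 capitals in Atp5k is an NRF-1 core read on both strands, with matches that overlap. NRF-1 and GABP are known as activators of many nuclear genes of the respiratory chain. A RefSeq promoter window of 300 bases (250 before and 50 after the start) was found for 36 of the 47 genes. Of these 36, 13 (36.1%) held the NRF-1 core and 12 (33.3%) the ETS core, and 3 (8.33%) held the YY1 letters AAGATGGC. Among all 32851 windows of that length in the table, 6.25%, 8.86% and 2.75% held these letters. A gene was counted if any of its windows held the match. Of the 16 such genes that rose in treated liver, 7 held the NRF-1 core, 8 the ETS core and 0 the YY1 letters. Of the 17 tested genes that did not pass the test, 6, 4 and 3 held them. These differences were not tested. A match describes letters only and was not tested as a binding site.

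Before the results, the libraries are described. Total counts ran from 15864399 to 20159132. The members took 0.655% to 0.784% of all counts in the controls and 0.872% to 0.966% in the treated libraries. Control 4 was the highest control for 26 of the 42 members tested and control 2 the lowest for 24. Treated 3 was the highest treated library for 30 of them. In the treated libraries short genes also stood higher relative to long ones: with all tested genes in 10 equal bins of length, the median deviation of the shortest bin minus that of the longest was 0.14 to 0.43 on the log2 scale in treated libraries and -0.34 to -0.04 in controls. The 42 tested members are short, with a median length of 1869.5 bases against 4269 for all tested genes. The counts of calls, and whether each called member kept its call, are therefore given also after a correction. It removes from every library its smooth trend with gene length and GC content. Levels, ratios, sums and the fold changes of some genes not called are given without it. Hepatocyte markers, all 8 of the list, summed to 110290 to 164070 CPM (counts scaled to library size with TMM factors) in controls and 131020 to 149890 CPM in treated libraries. None of the 8 was called by edgeR, 2 had an unadjusted p under 0.05 downward, and DESeq2 and limma-voom called 2 lower. Of 6 Kupffer cell markers 2 were called lower, and the list summed to 454 to 1077 CPM in controls and 290.3 to 579 CPM in treated libraries. Of 6 markers of sinusoidal endothelium 1 was called lower, and of 6 of stellate cells 1. Of 5 listed markers of T and NK cells 2 were tested, and 2 were called lower. Over all tested genes 3.75% were called lower. Of the 10 tested markers of cholangiocytes, B cells and erythroid cells none was called by edgeR, DESeq2 or limma-voom, and 1 had an unadjusted p under 0.05. The part that these markers have in the results was not tested. In bulk liver, fewer cells of a type and less RNA per cell cannot be told apart.

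Genes of the respiratory complexes were higher in treated liver, and none passed the test downward. By edgeR's quasi-likelihood test with Benjamini-Hochberg adjustment over 12861 genes, 17 of the 42 members tested rose (40.5%), where 5.46% of all tested genes were called higher. Called means an adjusted p under 0.05. None of the 42 was called lower, where 3.75% of all genes were, and none had an unadjusted p under 0.05 in that direction or was called lower by DESeq2 or limma-voom. All 42 fold changes were above 0 with TMM factors, from 0.01 to 2.31 on the log2 scale, though the lowest, that of Cycs, was below 0 with library size alone or upper quartile factors. Their median was 0.51, against -0.04 over all tested genes. In 21 of the 42 every treated library lay above every control, a pattern found in 10.2% of all tested genes, and in none did every treated library lie below, against 8.7%. After the length and GC correction 9 of 42 were called higher (21.4%) where 2.58% of all genes were, the median was 0.42 against 0.02 over all genes, and 7 of the 17 calls held. Then 39 of the 42 fold changes were above 0, with Cox8a at -0.05, Atp5h at -0.03 and Atp5mpl at -0.0081. The correction also moved the split of all calls, from 702 higher and 482 lower to 332 higher of 475. The count was 11 without control 2, 9 without control 3, 26 without control 4, 6 without treated 3, 10 without treated 4 and 12 to 18 without another single library. Over all tested genes the number called in either direction moved too, from 1184 with all libraries. It was 584 without control 2, 397 without control 3, 2330 without control 4, 183 without treated 3 and 474 without treated 4.

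**Figure D1:**
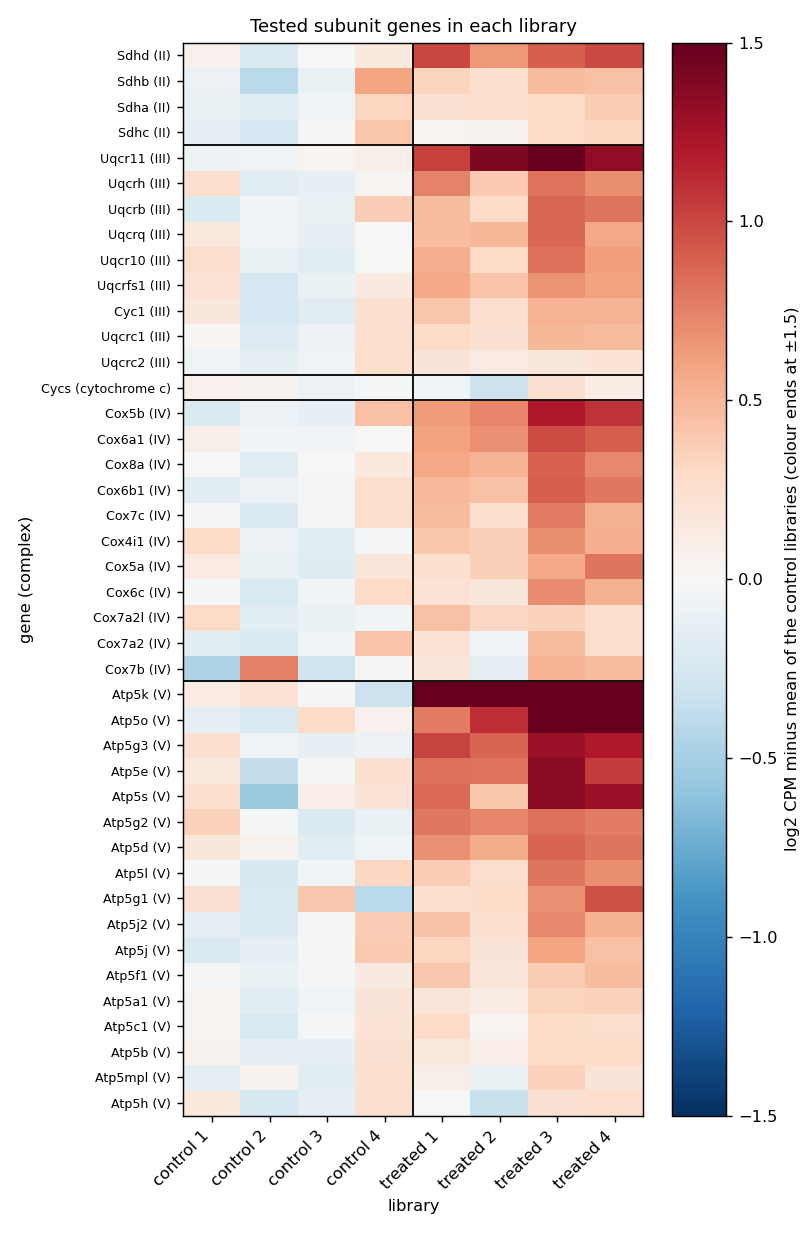
Level of the 42 tested genes in each library as log2 CPM minus the mean of the control libraries, with genes in rows by complex, libraries in columns and the colour scale ending at ±1.5. Treated 3 and 4 are the reddest columns, control 4 is redder than the other controls in complex II, and Cycs stays near the control mean.

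Among the short genes as a whole the share of calls was also above the average. In the shortest of the 10 bins, which holds 17 of the members, 14.9% of genes were called higher and the median fold change was 0.29. In the longest bin, which holds none of them, 1.24% were called higher and the median was -0.18. Within the 42 members the rank correlation of fold change with length was -0.38 and with GC content 0.38, given as a description, since genes share libraries. After the correction the rank correlation of the members' fold change with length was 0.18. The correction moved single genes unequally: it took Cox8a from 0.67 to -0.05 and Uqcr10 from 0.58 to 0.07, but left Atp5g3 at 1.14 from 1.10 and raised Atp5l, the longest member at 6443 bases, from 0.54 to 0.87. For Atp5l this length is that of all its annotated exons joined. It can exceed the length of the transcript made in liver, which was not checked.

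**Figure D2:**
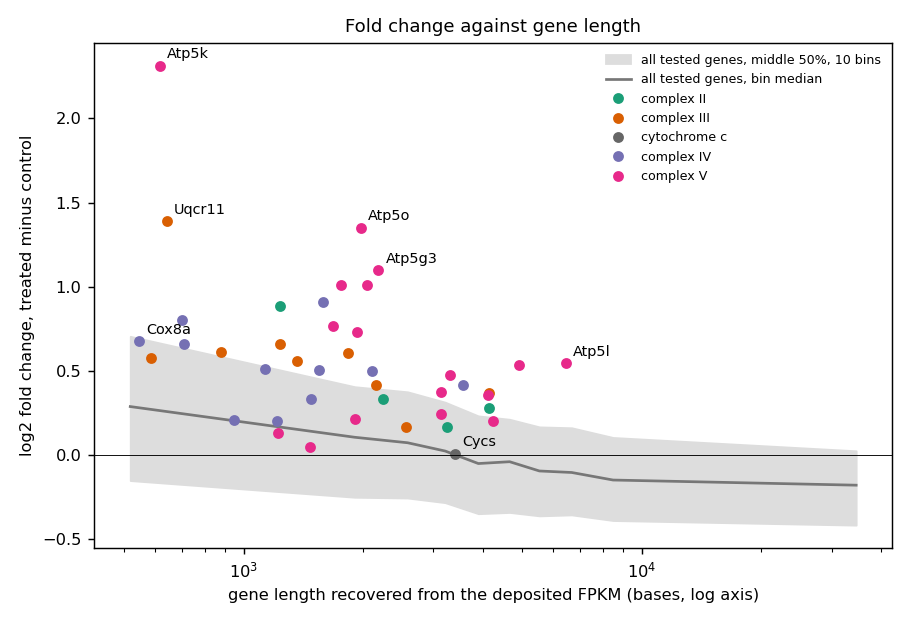
Log2 fold change of each tested member (points, coloured by complex) against its gene length in bases on a log axis, with the median and middle 50% of all tested genes in 10 bins of length (line and grey band). The band falls from a median of 0.29 in the shortest bin to -0.18 in the longest, and Atp5k, Uqcr11, Atp5o and Atp5g3 lie above it.

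In complex II, Sdhd alone passed the test. Sdhd encodes a membrane anchor that holds the heme and the ubiquinone site together with Sdhc. It is gene ENSMUSG00000000171 on chromosome 9 (GRCm38, 50596357 to 50603812). Sdhd stood at 144, 119, 138 and 152 CPM in controls 1 to 4 and at 276, 216, 256 and 273 CPM in treated 1 to 4, so the groups do not overlap. The log2 fold change was 0.89 (SE 0.13, edgeR adjusted p = 0.00799), and 0.76 after the correction (adjusted p = 0.0191). Sdhd was called in all 8 fits with 1 library left out. Sdha, the flavoprotein that oxidises succinate, stood at 333, 320.3, 345 and 449 CPM in controls and 419 to 468 CPM in treated libraries (log2 0.28, SE 0.15, adjusted p = 0.24). Sdhb, the iron-sulfur subunit, stood at 128 to 158 CPM in controls 1 to 3 and 254 CPM in control 4, above all treated libraries (201 to 234 CPM). Its log2 fold change was 0.33 with all libraries (adjusted p = 0.297) and 0.57 without control 4, where it was called (adjusted p = 0.0207). Sdhc, the other anchor, stood at 144 ± 30.8 against 161 ± 16.6 CPM (SD, n = 4 per group). Per length, Sdhd was also the most abundant of these transcripts, at 113 ± 6.67 FPKM in controls and 204 ± 18.4 in treated libraries. The ratio of Sdhd to Sdha in FPKM, chosen after its values were seen, was 1.13 to 1.44 in controls and 1.69 to 2.21 in treated libraries.

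In complex III, 5 of 9 genes rose (55.6%), and they include 4 small accessory subunits. Of all tested genes 5.46% were called higher, and of those in the shortest of the 10 length bins 14.9%. Uqcr11, a small accessory subunit (ENSMUSG00000020163, chromosome 10, 80402997 to 80406830), stood at 52.2, 53.6, 56.7 and 58.6 CPM in controls. In treated libraries it stood at 113, 145, 182 and 139 CPM. All treated values lie well above all controls, and the log2 fold change was 1.39 (SE 0.15, edgeR adjusted p = 0.00267). After the correction Uqcr11 was at 0.72 (adjusted p = 0.0287), a smaller rise that still passed. Uqcrh, the hinge protein that helps cytochrome c dock, rose from 99.7 ± 13.9 to 158 ± 19.6 CPM, and Uqcrq, another accessory subunit, from 213 ± 17.5 to 324 ± 42.8 CPM. Uqcrfs1, the Rieske iron-sulfur protein of the catalytic core, rose from 172 ± 25.2 to 254 ± 17.6 CPM, a log2 fold change of 0.56 (SE 0.14, adjusted p = 0.0371). Uqcr10 rose from 85.9 ± 11.6 to 128 ± 19.0 CPM, and per length it was the most abundant transcript of the complex at 149 ± 15.5 FPKM in controls.

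The other 4 genes of complex III did not pass. Cyc1, the cytochrome c1 heme protein, stood at 125 to 175 CPM in controls and 178 to 213 CPM in treated libraries, with no overlap (log2 0.42, SE 0.14, adjusted p = 0.094). With the correction Cyc1 was at 0.11 (edgeR adjusted p = 0.673). Uqcrb stood at 51.8 ± 9.88 against 79.1 ± 14.8 CPM (adjusted p = 0.0538), and the large core proteins Uqcrc1 and Uqcrc2 had log2 fold changes of 0.37 and 0.17. After the correction Uqcr11 was the only called gene of the complex, and the adjusted p of Uqcrh, Uqcrq, Uqcrfs1 and Uqcr10 became 0.0632, 0.067, 0.0809 and 0.781. Uqcr11 was also the only call without control 2, control 3, treated 1, treated 3 or treated 4, while 3 were called without treated 2 and 8 without control 4.

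Cytochrome c, the mobile carrier between complexes III and IV, was not called. Cycs (ENSMUSG00000063694, chromosome 6, 50562563 to 50566538) stood at 88.1, 87.5, 79.3 and 83.1 CPM in controls and 80.7, 68.0, 99.3 and 91.6 CPM in treated libraries, so the treated range encloses that of the controls. Its log2 fold change was 0.01 (SE 0.13, adjusted p = 0.981), the lowest of the 42 tested members, and 0.24 after the correction (adjusted p = 0.314). In FPKM the ratio of Cycs to Cyc1, chosen after its values were seen, was 0.300 to 0.442 in controls and 0.242 to 0.294 in treated libraries. This ratio is not corrected for length and GC content. With the correction the log2 fold change of Cyc1 was 0.11, below the 0.24 of Cycs, so the lower ratio did not hold.

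In complex IV, 4 of 11 tested genes rose (36.4%), where 5.46% of all tested genes were called higher. The core of this complex is mitochondrially encoded, so no member, called or not, could belong to it. Cox6a1 (ENSMUSG00000041697, chromosome 5, 115345642 to 115348981), the isoform of subunit 6a made in liver, stood at 201, 183, 182 and 190.1 CPM in controls and 288, 303, 372 and 355 CPM in treated libraries. The groups lie well apart (log2 0.80, SE 0.13, edgeR adjusted p = 0.00965), and the gene was called in all 8 fits with 1 library left out. Per length Cox6a1 had the highest mean over the 8 libraries of all 47 members, at 273 ± 11.9 FPKM in controls and 461 ± 41.7 in treated libraries. Cox8a, a small structural subunit, rose from 148 ± 13.2 to 237 ± 27.1 CPM, a log2 fold change of 0.67 (SE 0.13, adjusted p = 0.0166), lost without control 3 or treated 3. After the correction neither Cox6a1 nor Cox8a was called, Cox6a1 at 0.11 (adjusted p = 0.608) and Cox8a at -0.05 (adjusted p = 0.84). They are among the shortest members, at 702 and 545 bases, with GC contents of 60.9% and 58.6%.

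Cox5b, a subunit that binds zinc on the matrix side and whose promoter window held neither core, kept its call. Cox5b (ENSMUSG00000061518, chromosome 1, 36691449 to 36693681) stood at 56.5, 61.8, 60.5 and 89.2 CPM in controls and 102, 109.7, 151 and 139 CPM in treated libraries. Control 4 was nearest to the treated group. The log2 fold change was 0.91 (SE 0.18, adjusted p = 0.0199), 0.72 after the correction (adjusted p = 0.0424), and the call was lost without control 3, treated 3 or treated 4 (adjusted p = 0.0633, 0.071 and 0.0549). Cox6b1, which faces the intermembrane space, averaged 84.7 ± 11.6 CPM in controls and 134 ± 20.8 CPM in treated libraries, a rise lost without control 2, control 3, treated 3 or treated 4. After the correction Cox6b1 was at 0.24 (adjusted p = 0.254). Complex IV had 1 call without control 3 or treated 3, 2 without treated 4, and 3 to 6 without another single library.

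The 7 other tested genes of complex IV did not pass, with log2 fold changes from 0.20 to 0.51. Cox4i1, the isoform of subunit 4 common to most tissues, stood at 273, 210.0, 198 and 219.8 CPM in controls and 298, 287, 364 and 328 CPM in treated libraries, without overlap (adjusted p = 0.0592). Its log2 fold change was 0.50, and 0.28 after the correction (edgeR adjusted p = 0.259). Cox5a, which binds to subunit 4, also had no overlap, at 46.9 ± 5.75 against 66.2 ± 11.6 CPM (adjusted p = 0.0618). Cox7c stood at 184 ± 25.2 against 262 ± 39.7 CPM, and Cox7a2 at 78.3 ± 17.3 against 90.4 ± 13.1 CPM. Cox7b stood apart in control 2, at 216 CPM against 92.7 to 129.8 CPM in the other controls and 116 to 183 CPM in treated libraries. Without control 2 its log2 fold change was 0.53, against 0.20 with all libraries, and it was not called in any of the 8 fits. The remaining genes here are Cox6c and Cox7a2l, a factor that helps join complexes III and IV, at log2 0.41 and 0.33.

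The isoforms of complex IV known from other tissues were at or near 0 and were not tested, since they did not pass the filter on low counts. Cox4i2, best known from lung, had 0 to 9 reads a library, and the testis isoform Cox6b2 had 1 to 9. The heart and muscle isoforms Cox6a2 and Cox7a1 had 0 to 4 and 2 to 16 reads. Cox8b, also of muscle and brown fat, had 1 read in control 2 and 0 in the other 7 libraries. Of 6 listed markers of muscle only 2 were found among the genes, and they were likewise at 0 or near it, with at most 0.103 summed CPM in a library. Of 5 for adipocytes 4 were found, with at most 0.105 summed CPM.

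**Figure D3:**
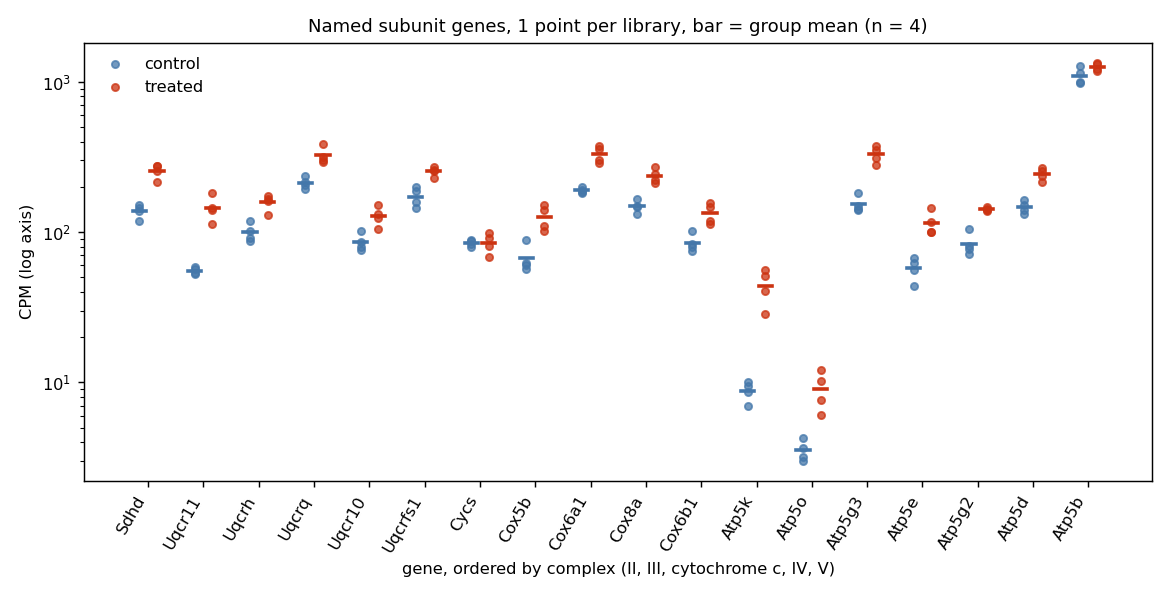
CPM on a log axis of the named genes that were tested, ordered by complex, with 1 point per library (blue control, red treated) and a bar at each mean of 4 libraries. The groups do not overlap in any gene shown other than Cycs and Atp5b.

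In complex V, 7 of 17 genes rose (41.2%, where 5.46% of all tested genes were called higher). Atp5a1 and Atp5b, the most abundant, were not among them. Atp5k, the small subunit e of the membrane part, whose promoter window held both cores, had the largest fold change of the 42. The gene Atp5k (ENSMUSG00000050856, chromosome 5, 108433244 to 108434448) stood at 9.49, 10.1, 8.61 and 6.98 CPM in controls and at 28.5, 40.5, 55.5 and 50.8 CPM in treated libraries. Every treated value lies far above the highest control, with a log2 fold change of 2.31 (SE 0.22, edgeR adjusted p = 0.00213). After the correction Atp5k was at 1.75 (adjusted p = 0.00651), and it was called in each of the 8 fits with 1 library left out. Its fold change lies at percentile 99.8 of all tested genes. Subunit e takes part in the pairing of ATP synthases into dimers along with subunit g, the product of Atp5l. Atp5l stood at 33.7 ± 5.52 against 49.1 ± 8.68 CPM (log2 0.54, adjusted p = 0.0603), and passed after the correction (log2 0.87, adjusted p = 0.0347).

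The rotor showed calls in some of its genes, and differences between their fold changes were not tested. Its c ring, through which protons pass, is made of a peptide encoded in triplicate by Atp5g1, Atp5g2 and Atp5g3, which differ in the leader that targets it to mitochondria. Atp5g3 (ENSMUSG00000018770, chromosome 2, 73908447 to 73911326) stood at 182, 149, 140.2 and 143 CPM in controls and 309, 279, 376 and 351 CPM in treated libraries. It rose by 1.10 on the log2 scale (SE 0.15, adjusted p = 0.00557), by 1.14 after the correction, and in all 8 fits with 1 library left out. Atp5g2 rose from 83.4 ± 15.1 to 142 ± 3.60 CPM, by 0.76 on the log2 scale (SE 0.14, adjusted p = 0.013). This call was lost after the correction (log2 0.51, adjusted p = 0.0697) and without treated 3 (adjusted p = 0.0529). Atp5g1 stood at 69.4 to 121 CPM in controls and 108 to 178 CPM in treated libraries, with overlap and no call (log2 0.53, adjusted p = 0.142). After the correction Atp5g1 was at 0.65 (edgeR adjusted p = 0.115), above the 0.51 of Atp5g2. In FPKM the sum of these genes was 125 to 161 in controls and 242 to 273 in treated libraries. The share of Atp5g3 in that sum was 49.0% to 52.2% in controls and 55.0% to 59.6% in treated libraries. Neither the sum nor the share carries the correction. These genes are related in sequence, so reads could be split between them.

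**Figure D4:**
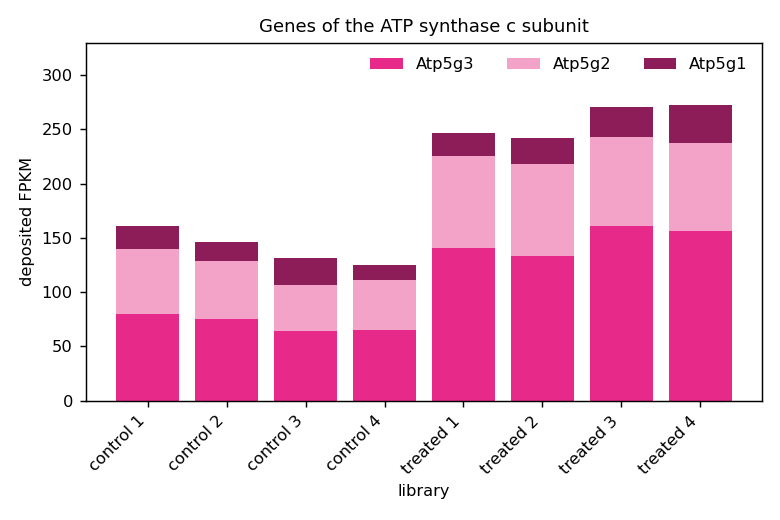
Deposited FPKM of the genes of the ATP synthase c subunit in each library, stacked, with Atp5g3 at the bottom. The sum is 125 to 161 FPKM in controls and 242 to 273 FPKM in treated libraries, and Atp5g3 is the largest part in every library.

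The central stalk links the ring to the catalytic head. Atp5e, its epsilon subunit, stood at 62.4, 44.1, 55.8 and 66.9 CPM in controls and at 100.05, 100.01, 144 and 117 CPM in treated libraries (log2 1.01, SE 0.17, adjusted p = 0.0109). The call of Atp5e held after the correction (log2 0.89, adjusted p = 0.0248) and in all 8 fits with 1 library left out. Atp5d, the delta subunit, rose from 147 ± 14.1 to 244 ± 23.1 CPM, by 0.73 on the log2 scale (SE 0.13, adjusted p = 0.0122). It was not called after the correction (log2 0.42, adjusted p = 0.0794) or without treated 3 (adjusted p = 0.0525). Atp5c1, the gamma subunit that turns within the head, stood at 234 ± 28.9 against 271 ± 21.4 CPM and did not pass (log2 0.21, adjusted p = 0.318). The head itself is built from Atp5a1 and Atp5b, whose products form the alpha and beta subunits, and neither was called. Atp5b, the most abundant member of complex V, stood at 1136, 984, 999.8 and 1276 CPM in controls and 1220.1, 1173, 1318 and 1341 CPM in treated libraries, which overlap (log2 0.20, SE 0.15, adjusted p = 0.405). Atp5a1 stood at 791 ± 82.6 against 934 ± 76.1 CPM (log2 0.24, adjusted p = 0.302).

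The peripheral stalk holds the head in place. Of its genes Atp5o, which encodes the subunit that confers sensitivity to oligomycin, rose from 3.53 ± 0.570 to 9.02 ± 2.69 CPM, a log2 fold change of 1.35 (SE 0.24, adjusted p = 0.014), and of 1.27 after the correction (adjusted p = 0.0229). Its level was far below that of other stalk genes, at 1.81 ± 0.271 FPKM in controls. Of the annotated exon bases of Atp5o, 47.9% also belong to exons of other genes in the GENCODE annotation, among them a second gene of the same name on the same strand. How its reads were shared is not known, so its level is uncertain, and its call was lost without treated 3 (adjusted p = 0.0529). Atp5f1 stood at 262 ± 18.5 against 336 ± 27.4 CPM without overlap and passed only after the correction (log2 0.36 before, adjusted p = 0.0973, and 0.57 after, adjusted p = 0.0477). Atp5j and Atp5h, the other stalk genes, had log2 fold changes of 0.38 and 0.05 and were not called. Atp5s, coupling factor B, rose from 4.67 ± 1.10 to 9.38 ± 2.68 CPM (adjusted p = 0.0425), with 1.08 after the correction (adjusted p = 0.0523), and was called in 2 of the 8 fits with 1 library left out. Atp5j2 and Atp5mpl, small membrane subunits, stood at log2 0.48 and 0.13 and did not pass. Without treated 3 the count for complex V was 3, made up of Atp5k, Atp5g3 and Atp5e, and without another single library it was 6 to 10.

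**Figure D5:**
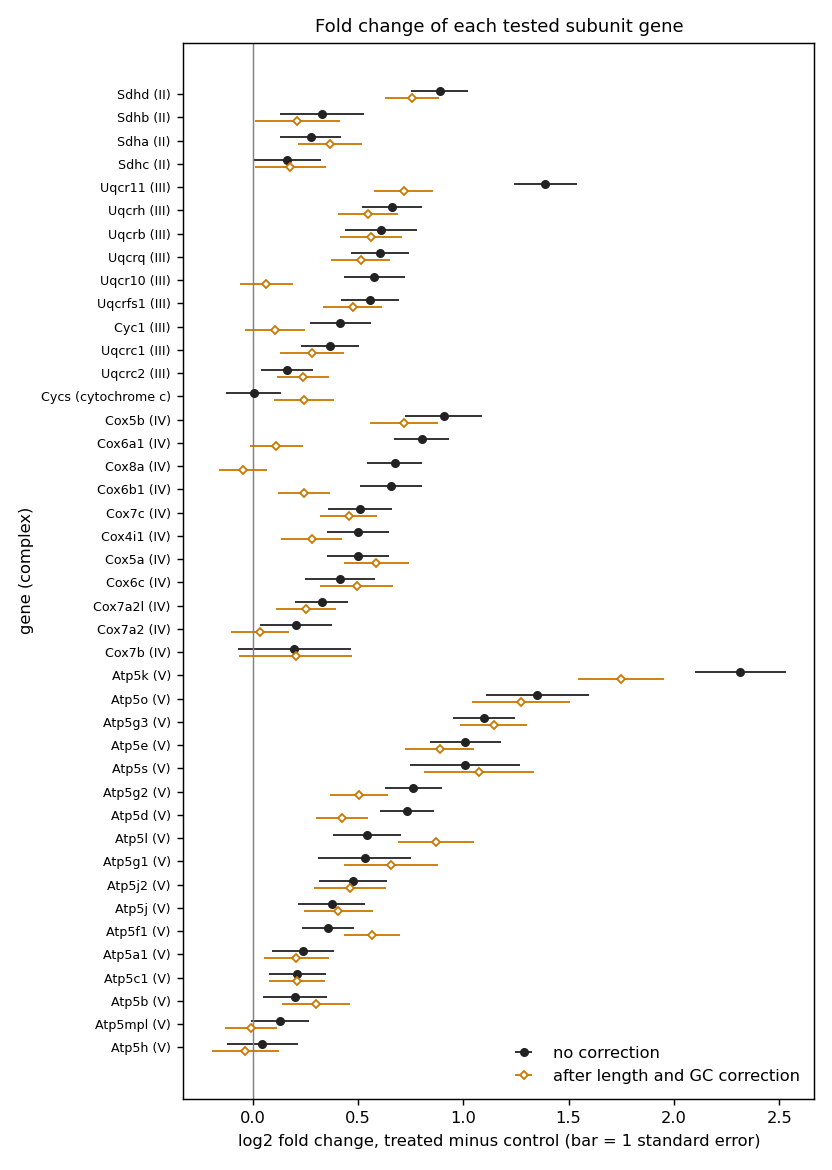
Log2 fold change (treated minus control) with 1 standard error for each tested gene, ordered by complex, without a correction (black) and after the correction for gene length and GC content (orange). Cox6a1, Cox8a and Uqcr10 move to near 0, while Atp5k, Atp5o, Atp5g3, Atp5e, Sdhd, Uqcr11 and Cox5b keep their calls.

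By complex, the median log2 fold change was 0.30 in complex II, 0.58 in complex III, 0.50 in complex IV and 0.53 in complex V. After the correction these medians were 0.29, 0.47, 0.25 and 0.51. Differences between complexes were not tested. The summed FPKM of complex III ran from 745 to 868 in controls and from 1171 to 1353 in treated libraries, and that of complex IV from 1263 to 1456 and from 1823 to 2156. For complex V the sums were 1140.4 to 1345 and 1511 to 1703, and for complex II 295 to 401 and 431 to 478. None of these 4 ranges overlaps between groups, and control 4 held the highest control sum in each. The sums carry no length and GC correction, and no sums of other genes were set beside them. In complex IV, Cox6a1 rose from 273 to 461 and Cox8a from 275 to 426 mean FPKM. These 2 genes have the highest mean FPKM of the complex, and their log2 fold changes were 0.11 and -0.05 after the correction.

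Other genes tied to the complexes were counted on lists of assembly factors drawn up with earlier results known, of which the list for complex V also holds the inhibitor Atpif1 and the small subunit Usmg5. Of 4 tested genes for complex II 1 rose, of 6 for complex III 1, of 22 for complex IV 6 and of 6 for complex V 2, where 5.46% of all tested genes were called higher. After the correction the counts were 1, 0, 0 and 0, where 2.58% of all genes were called. None of these 38 was called lower by edgeR. Downward, Lyrm7, a complex III assembly factor, alone had an unadjusted p under 0.05 (2.39 ± 2.20 against 0.505 ± 0.195 CPM, edgeR adjusted p = 0.0787), and DESeq2 called it lower while limma-voom did not. Sdhaf4, which aids the joining of Sdha to Sdhb, rose from 5.59 ± 0.757 to 10.7 ± 1.74 CPM, by 0.93 on the log2 scale (SE 0.17, edgeR adjusted p = 0.0151), and kept its call after the correction (adjusted p = 0.0343). Uqcc3, an assembly factor of complex III, rose by 0.76, and the complex IV factors Higd2a, Cox14 and Cmc2 rose by 0.78, 0.73 and 0.67 on the log2 scale, calls that were lost after the correction. Usmg5, a small ATP synthase subunit under an older name, rose from 48.0 ± 3.60 to 87.5 ± 11.8 CPM, and Fmc1, an ATP synthase assembly factor, from 10.8 ± 2.28 to 22.7 ± 3.91 CPM. These were likewise lost after the correction (adjusted p = 0.179 and 0.0551). Ndufa4, a complex IV subunit named for complex I, rose from 172 ± 17.1 to 255 ± 29.6 CPM and held after the correction (adjusted p = 0.0335), but was called in only 2 of the 8 fits with 1 library left out.

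Among 12 regulators of mitochondrial biogenesis 1 was called higher, Esrra, a share near the 5.46% of all tested genes. Esrra encodes an orphan nuclear receptor that activates respiratory chain genes. It stood at 21.3, 14.1, 13.8 and 15.7 CPM in controls and 37.6, 38.2, 33.0 and 34.7 CPM in treated libraries, with no overlap (log2 1.15, SE 0.15, edgeR adjusted p = 0.00557). The call held after the correction (log2 0.91, adjusted p = 0.0179) and in all 8 fits with 1 library left out. Ppargc1a, a coactivator of that receptor, stood at 45.9 CPM in control 1 and 8.80 to 13.3 CPM in the other controls, against 8.74 to 17.9 CPM in treated libraries (log2 -0.65, adjusted p = 0.46). Nrf1 and Gabpa, which encode NRF-1 and a GABP subunit, had log2 fold changes of 0.06 and 0.03. Of the 11 not called, 3 had an unadjusted p under 0.05 downward, with DESeq2 and limma-voom calling none lower. They are Ppargc1b, Tfb1m and Gabpb1, the gene of another GABP subunit. Their log2 fold changes were -0.69, -0.58 and -0.36 (edgeR adjusted p = 0.163, 0.124 and 0.164). After the correction these were -0.87, -0.43 and -0.15. The partner subunits encoded in mitochondrial DNA did not pass with all libraries: of 5 tested none was called by edgeR, 2 had an unadjusted p under 0.05 downward, and DESeq2 and limma-voom each called 1 lower. Their log2 fold changes ran from -0.62 to -0.05, with mt-Co1 at 24788 ± 2950.3 against 23885 ± 3731 CPM and mt-Cytb at 9225 ± 2137 against 7484 ± 1285 CPM. Their levels differed widely, and mt-Atp8 had no read in any library. After the correction mt-Co2, named here after its values were seen, was called lower (65.0 ± 11.2 against 43.5 ± 8.26 CPM, log2 -0.61, adjusted p = 0.0402). Its mean was 79.1 FPKM against 15675 for mt-Co1, and whether all its reads were counted is not known, so its level is uncertain.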

How the data were processed

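The authors deposited raw read counts per gene and FPKM values for 4 treated and 4 control libraries. According to the labels, poly-A RNA was made into libraries with a kit that does not mark strand. Each deposited FPKM equals count over length over library total, as checked on the values, which gave the length. For Atp5l and Atp5f1 that length, 6443 and 4105 bases, equals all annotated exon bases of the gene in GENCODE M21 joined. For Cox8a it does not, with 545 bases against 619 annotated there. The correction and the levels per length rest on the recovered lengths, not on the transcripts present. The submitters' processing notes list HISAT2, HTSeq 0.13.5, DESeq2 1.32.0 and GRCm38. Neither annotation release nor strand setting is given in the sources used here, so overlapping genes cannot be told apart.

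The main test was edgeR 4.0.16 in R 4.3.3: filterByExpr (minimum count 10, minimum total 15), TMM factors and the robust quasi-likelihood test over 12861 genes. A standard error is the fold change over the root of F. For the correction, natural splines (5 degrees of freedom) in log length and GC content (GENCODE M21, GRCm38, 24540 identifiers and all 47 members matched) were fitted to every library's log2 CPM deviations (prior count 2) and used as offsets. Values are mean ± SD. The steps were tested on simulated data that held no trend with length or GC content. How well the correction removes such a trend was therefore not tested.

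Named by rule were, per complex, up to 6 called members by adjusted p, the member of highest mean FPKM and isoforms of other tissues, and per pathway list up to 3 called genes or, with none called, the 2 most abundant. Other members were added to account for all, and some genes of the pathway lists that were not called were named outside this rule. Members and lists were chosen with earlier results of these data known. Alternatives used DESeq2 1.42.0, limma 3.58.1, other factors, filters, pseudocounts and thresholds, a replicate block and left-out libraries.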

Additional observations from a re-analysis of the deposited data

Results flagged for a closer look

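In 2 of 84 groups of 4 libraries (42 members, each in both treatment groups) a single library stood far from the other 3, by Dixon's ratio of the gap to the group's range at the 5% level. Chance flags about 5% of groups, or 4.2 here. Cox5b stood at 89.2 CPM in control 4 against 56.5 to 61.8 CPM in the other controls. Atp5c1 stood at 239 CPM in treated 2 against 279 to 283 CPM in the other treated libraries.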

How the results depend on the processing

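The 17 calls kept their direction and side of the threshold with upper quartile factors, DESeq2 size factors, no factors at all, other count filters, non-robust dispersion, DESeq2, limma-voom, and limma on log2(FPKM + 1) or log2(FPKM + 0.1) with a filter. The count of members called higher fell to 10 with limma on log2(FPKM + 1) without a filter, to 9 with the length correction, to 9 with the length and GC correction and to 5 at an adjusted p under 0.01. Over all genes the number called was 1184, against 2153 with DESeq2, 2088 with limma-voom, 322 without a filter on log2(FPKM + 1), 475 after the length and GC correction, 145 at 0.01 and 2272 at 0.1. In complex III the count was 8 with limma-voom, 1 without the FPKM filter, 1 with either correction, 1 at 0.01 and 2 without controls 2 and 4, a setting chosen after seeing the data, which left 13 members called. In complex IV it was 7 with DESeq2, limma-voom or a threshold of 0.1, 2 without the FPKM filter, 1 with either correction and 1 at 0.01. In complex V it was 2 at 0.01.

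Leaving out each library in turn gave 6 to 26 members called and 183 to 2330 genes in all, with 1 to 2 calls in complex II, 1 to 8 in III, 1 to 6 in IV and 3 to 10 in V. The median log2 fold change of the members ran from 0.44 to 0.59 with a library left out, and was 0.38 with the length correction. Cycs changed sign, at -0.047 with library size alone, -0.0069 with upper quartile factors, -0.048 with log2(FPKM + 1), with or without the filter, and -0.050 with log2(FPKM + 0.1), and ran from -0.075 to 0.12 with a library left out (-0.02 without control 3, -0.075 without treated 3, -0.03 without treated 4). Cox8a was at -0.045 after the length and GC correction. Causes were not tested.

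Same-numbered libraries correlated in their deviations at 0.177, 0.0589, -0.0124 and 0.0697, and only number 1 was most like its own number, so the labels' numbers were not taken as pairs. A replicate block gave 17 members called, 15 of them among the 17, and 944 genes in all, with Cycs at -0.0066. The replicate block with the length correction gave 11 members and 676 genes in all, with 1 call in complex III, 1 in complex IV and Cycs at -0.0059.

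With 4 libraries a group, a fold change that missed the threshold is not shown to be 0, and members under the count filter could not be tested.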
